A study of Mus musculus with 37 samples.

Results

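Sfmbt2 and 9 other genes of the Polycomb group were followed across the cortex of 37 mice of 4 genotypes. The 10 genes were Sfmbt2, Sfmbt1, Ezh1, Ezh2, Eed, Suz12, Jarid2, Bmi1, Ring1 and Rnf2, and all 31 probe sets that the array annotation assigned to 1 of these symbols were used, out of 45037 probe sets for 18193 named genes. Sfmbt2 was chosen by its rise with the R6/2 transgene in these same arrays. Its values in the comparisons of mice with and without the transgene are therefore given as a description with no test, and its probe sets were left out of every count in those comparisons. The other 9 genes were taken as its partners in the same chromatin system, with earlier results of these data known. Counts over them, set beside the share of all probe sets, are therefore a description.

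Polycomb proteins keep genes silent by modifying histones, and they work as complexes. PRC2 methylates lysine 27 of histone H3 through the catalytic subunits EZH1 or EZH2, with EED and SUZ12 as its other core subunits and JARID2 as an accessory subunit. PRC1 ubiquitinates histone H2A through RING1 or RNF2, with BMI1 as a partner of these ligases. SFMBT1 and SFMBT2 carry MBT domains that bind methylated histones, and they pair with the DNA-binding protein YY1 in the mammalian counterpart of the fly PhoRC complex. In neurons after the last division, the complexes are known for holding developmental regulators and genes of other cell types silent, and EZH1 is the form of the catalytic subunit associated with cells that no longer divide.

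R6/2 mice carry a transgene for the first exon of human HTT with an expanded CAG repeat, under human HTT promoter sequence, and are a model of Huntington's disease. Mice with 1 null allele of the histone deacetylase gene Hdac4 (Hdac4HET) were crossed with R6/2 males, which gave WT, Hdac4HET, R6/2 and double-mutant (Dble::R6/2) mice. The null allele was first made in another strain, so a stretch of chromosome around Hdac4 may differ from the CBA x C57Bl/6 background that all 4 genotypes share. Cortex was taken at 9 wk of age from 9 WT (5 male, 4 female), 9 Hdac4HET (5 male, 4 female), 9 R6/2 (5 male, 4 female) and 10 Dble::R6/2 mice (5 male, 5 female), with 1 Affymetrix array per mouse. The comparisons asked what the transgene changed with both Hdac4 alleles present (R6/2 against WT) and with 1 null allele (Dble::R6/2 against Hdac4HET), what the null allele changed without and with the transgene, and whether the effect of the transgene differed with the null allele (the interaction). Levels are log2 expression values, so a difference of 1 is 2-fold, and a probe set was called changed when its adjusted p was under 0.05 and its fold change over 1.3 (0.38 on the log2 scale).

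The arrays were alike in overall level, with array medians from 6.16 to 6.21 and correlations of 0.993 to 0.998 between arrays of the same genotype. Hdac4 itself was at most 8.02 on the arrays labelled with the null allele and at least 8.28 on the others. Markers of the olfactory bulb, a tissue next to the cortex, had a mean level above every WT array on 8 arrays, of which 7 were Hdac4HET (replicates 1, 3, 4, 5, 6, 7 and 9) and 1 was Dble::R6/2 (replicate 10). That mean ran from 6.42 to 6.71 in WT, 6.48 to 8.65 in Hdac4HET, 6.42 to 6.68 in R6/2 and 6.39 to 7.33 in Dble::R6/2, and 11 of 15 measured bulb markers were called higher in Hdac4HET than in WT. On 6 arrays (WT replicate 9, Hdac4HET replicates 1, 5 and 9, Dble::R6/2 replicates 1 and 9) the sex-linked genes went against the labelled sex. For Hdac4HET replicates 5 and 9 this was so in part, as both carried signal of both sexes. Xist, read as the female gene, was at 9.99 and 10.26 there, and the mean of the Y-linked genes at 6.56 and 5.89. Whether those arrays held RNA of 1 mouse alone was not tested. Where leaving out either set of arrays made or ended a call, or took a named difference past an adjusted p of 0.05, the value without them is given beside it. Leaving out the arrays of raised bulb markers leaves 2 Hdac4HET arrays. Neuronal markers were high on every array, but their mean level was lower with the transgene, at 11.68 to 11.75 in R6/2 against 11.78 to 11.90 in WT and at 11.66 to 11.79 in Dble::R6/2 against 11.85 to 11.92 in Hdac4HET. Of 12 neuronal markers none was called in the first comparison, and 1 was called higher and 1 lower in the second. The mean of 10 astrocyte markers was likewise apart, at 9.98 to 10.14 in R6/2 against 10.23 to 10.36 in WT and 9.95 to 10.11 in Dble::R6/2 against 10.23 to 10.36 in Hdac4HET, with 0 and 2 called lower. Of 10 measured markers of oligodendrocytes and their precursors 2 were called lower in each comparison. The ranges of their mean overlapped, at 10.25 to 10.53 in R6/2 against 10.46 to 10.75 in WT. The other pair was at 10.26 to 10.57 in Dble::R6/2 against 10.42 to 10.73 in Hdac4HET. Of 6 measured markers of the striatum, which lies under the cortex, 5 were called lower in R6/2 than in WT and 6 in Dble::R6/2 than in Hdac4HET. These shifts run with the transgene in every comparison of mice with and without it, and their part in the differences of the members was not tested. In whole tissue, fewer cells of a type and less RNA per cell cannot be told apart.

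The sequences just upstream of the genes were set out because Sfmbt proteins are brought to DNA by YY1, and because Sfmbt2 and Bmi1 had the largest rises among the main probe sets described below. All 10 genes matched the RefSeq table (build GRCm38.p6), which gave 12 windows from 250 bases before to 30 bases after an annotated start, 2 each for Sfmbt2 and Jarid2. The motif GCCATNTTG, a form of the YY1 site, was searched on both strands and does not overlap itself or another motif searched. It was present in 3 of the 12 windows and in 2.06% of 32851 windows of this size in the table. The motif was chosen after these sequences had been read, so its count is a description. It began at position 10 from the downstream start of Sfmbt2, at position -170 from the start of Bmi1 and at position -14 from the upstream start of Jarid2, where the start is position 1 and the base before it -1, in each case on the strand of the gene. The windows follow 5′ to 3′ on the strand of the gene, with the motif in capitals.
Sfmbt2, upstream start (chr2:10370201-10370480, plus strand): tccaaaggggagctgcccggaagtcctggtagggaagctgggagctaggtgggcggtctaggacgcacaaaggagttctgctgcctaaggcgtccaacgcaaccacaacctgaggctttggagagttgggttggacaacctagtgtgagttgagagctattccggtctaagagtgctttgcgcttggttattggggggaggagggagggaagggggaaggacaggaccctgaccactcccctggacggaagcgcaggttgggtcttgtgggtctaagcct
Sfmbt2, downstream start (chr2:10372186-10372465, plus strand): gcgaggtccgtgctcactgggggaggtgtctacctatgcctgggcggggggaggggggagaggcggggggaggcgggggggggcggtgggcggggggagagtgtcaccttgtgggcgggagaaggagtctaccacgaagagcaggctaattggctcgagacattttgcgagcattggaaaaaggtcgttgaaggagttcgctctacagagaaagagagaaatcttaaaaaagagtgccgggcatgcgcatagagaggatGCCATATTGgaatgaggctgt
Bmi1 (chr2:18676768-18677047, plus strand): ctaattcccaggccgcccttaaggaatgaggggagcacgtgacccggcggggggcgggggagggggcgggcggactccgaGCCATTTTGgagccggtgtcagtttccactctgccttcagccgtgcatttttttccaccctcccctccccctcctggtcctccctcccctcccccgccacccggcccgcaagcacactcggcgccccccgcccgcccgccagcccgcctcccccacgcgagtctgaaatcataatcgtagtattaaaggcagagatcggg
Jarid2, upstream start (chr13:44730524-44730803, plus strand): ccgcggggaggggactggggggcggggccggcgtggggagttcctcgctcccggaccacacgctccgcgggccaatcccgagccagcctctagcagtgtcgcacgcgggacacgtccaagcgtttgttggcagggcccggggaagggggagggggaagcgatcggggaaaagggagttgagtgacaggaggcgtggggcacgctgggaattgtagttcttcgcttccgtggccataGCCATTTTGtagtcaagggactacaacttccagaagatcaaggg

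The upstream window of Sfmbt2 held no match. The 3 genes with a match differed in their levels across genotypes as described below: Sfmbt2 and Bmi1 were higher with the transgene, and no Jarid2 probe set was called changed. CpG dinucleotides numbered 9 and 15 in the windows of Sfmbt2, 23 in that of Bmi1, and up to 41 in that of Suz12, against a median of 6 over all windows in the table. No binding was measured, and a match of letters is not a site.

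Sfmbt2 was far higher in both genotypes with the R6/2 transgene than in both genotypes without it. On probe set 1434353_at, the brighter of its pair, WT mice were at a lowest, median and highest level of 5.82, 6.13 and 6.26. Hdac4HET mice were at 5.93, 6.25 and 6.57, R6/2 mice at 7.18, 7.49 and 7.76, and Dble::R6/2 mice at 7.15, 7.43 and 7.55. Every mouse with the transgene was above every mouse without it, and the closest were the highest Hdac4HET and the lowest Dble::R6/2 mouse.

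The mean level was 6.06 ± 0.16 (SD, n = 9) in WT and 7.44 ± 0.19 (SD, n = 9) in R6/2, a difference of 1.38 with a standard error of 0.08, or 2.60-fold. In Hdac4HET it was 6.24 ± 0.24 (SD, n = 9) and in Dble::R6/2 7.40 ± 0.13 (SD, n = 10), a difference of 1.16 with a standard error of 0.08, or 2.24-fold. Among all probe sets, in order of rise, 1434353_at stood at place 13 of 45037 in R6/2 against WT and at place 17 in Dble::R6/2 against Hdac4HET. Since the gene was picked for this rise, these ranks describe the choice. The difference between Dble::R6/2 and Hdac4HET was 1.41 without the arrays of raised bulb markers, on which the Hdac4HET mice left (replicates 2 and 8) were at 5.93 and 6.04.

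The second probe set of Sfmbt2, 1443176_at, lay lower on the scale and gave the same order of transgene and non-transgene mice. WT mice ran from 4.34 to 4.79 with a median of 4.65, and R6/2 mice from 5.02 to 5.48 with a median of 5.24. Hdac4HET mice ran from 4.39 to 4.77 with a median of 4.62, and Dble::R6/2 mice from 4.92 to 5.43 with a median of 5.16. Again no mouse with the transgene fell within the range of the mice without it. The differences were 0.62 (1.53-fold) in R6/2 against WT and 0.58 in Dble::R6/2 against Hdac4HET. Within genotypes the pair of probe sets moved together only loosely, with a correlation of 0.39 across 37 arrays after the mean of each genotype was removed.

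The null Hdac4 allele was not among the values that chose Sfmbt2, although these comparisons share the WT or the R6/2 arrays with the one that did. The level of 1434353_at in Dble::R6/2 against R6/2 differed by -0.04 (95% interval -0.21 to 0.12, limma adjusted p = 0.846), and that of 1443176_at by -0.04 (-0.18 to 0.09, adjusted p = 0.798). In Hdac4HET against WT the differences were 0.17 (0.01 to 0.34, adjusted p = 0.282) and -0.01 (-0.15 to 0.13, adjusted p = 0.960). The first of these was -0.08 (adjusted p = 0.918) without the arrays of raised bulb markers, so the sign of the difference rested on those arrays. The order of the 4 genotypes by mean level was thus WT, Hdac4HET, Dble::R6/2 and R6/2 on 1434353_at. Neither the lower nor the upper pair of neighbours in that order was called changed, and the ranges overlapped within each pair.

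**Figure D1:**
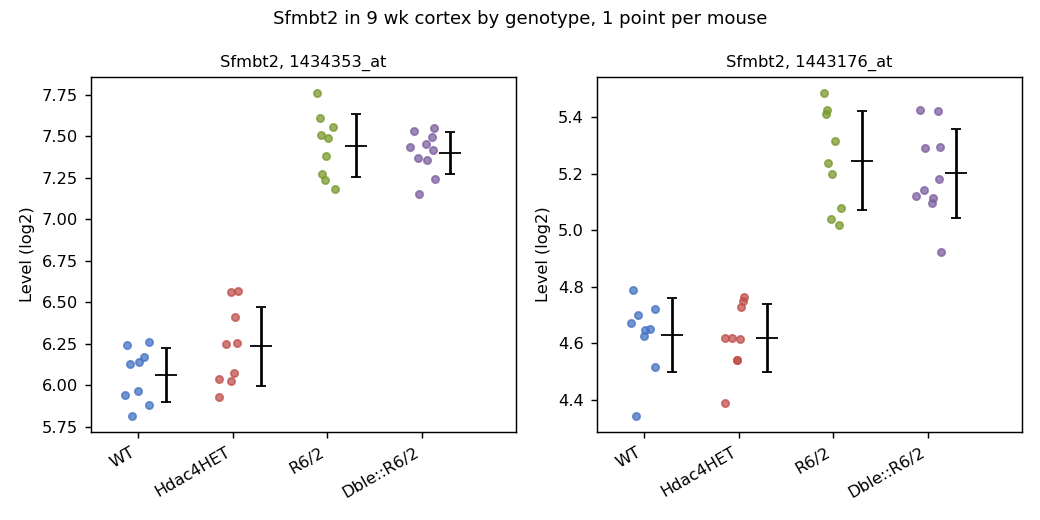
Level of Sfmbt2 (log2) on its 2 probe sets in each of 37 mice by genotype, with 1 point per mouse and a bar for the mean ± SD of each genotype. On 1434353_at the R6/2 and Dble::R6/2 mice sit between 7.15 and 7.76 and the WT and Hdac4HET mice between 5.82 and 6.57, and on 1443176_at the ranges are likewise apart.

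Sfmbt1, the paralog of Sfmbt2, was level across the genotypes on its brightest probe set. On that probe set, 1429749_at, WT mice ran from 8.60 to 8.89, Hdac4HET from 8.62 to 8.87, R6/2 from 8.68 to 8.82 and Dble::R6/2 from 8.66 to 8.92, with medians of 8.79, 8.78, 8.78 and 8.78. The 4 ranges lay on top of each other. The difference was 0.00 in R6/2 against WT (95% interval -0.08 to 0.08, adjusted p = 0.963) and 0.02 in Dble::R6/2 against Hdac4HET (-0.06 to 0.10, adjusted p = 0.796).

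The other 4 probe sets of Sfmbt1 did not all go with the brightest one. Probe set 1455412_at was 0.27 higher in R6/2 than in WT (standard error 0.05, adjusted p = 2.04e-05) and 0.16 higher in Dble::R6/2 than in Hdac4HET (adjusted p = 0.00627), short of 1.3-fold in both. The second was 0.13 (adjusted p = 0.330) without the arrays of raised bulb markers. Probe set 1422893_at was 0.24 higher in R6/2 than in WT (adjusted p = 0.000641) and differed by 0.10 in the other pair (adjusted p = 0.138). In the opposite direction, 1422894_at was called lower in Dble::R6/2 than in Hdac4HET, by -0.43 with a standard error of 0.10 (adjusted p = 0.00048). On this probe set Hdac4HET mice ran from 6.30 to 6.81 with a median of 6.53 and Dble::R6/2 mice from 5.72 to 6.37 with a median of 6.21, so the ranges overlapped. The difference was -0.18 (adjusted p = 0.535), and not called, without the arrays of raised bulb markers. The lowest Dble::R6/2 mouse, replicate 10, and 7 of the 9 Hdac4HET mice were on those arrays, and the part of bulb tissue in the difference was not tested. The last probe set, 1443853_x_at, had a mean below the lower quartile of all probe-set means (4.47) and differed by -0.02 and -0.01 in the pair of comparisons.

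Among the PRC2 genes the clearest rise was in Eed, the subunit that binds methylated lysine 27 and stimulates the enzyme. On 1448653_at, its main probe set, the lowest, median and highest levels were 8.34, 8.48 and 8.67 in WT and 8.73, 8.94 and 9.01 in R6/2. They were 8.44, 8.65 and 8.75 in Hdac4HET and 8.75, 8.84 and 8.97 in Dble::R6/2. In both pairs every mouse with the transgene was above every mouse without it, narrowly so in the second. The rise was 0.41 in R6/2 against WT (standard error 0.04, 1.32-fold, adjusted p = 9.15e-10) and was called, though under quantile normalization it was 0.36 and missed the fold threshold. It was 0.21 in Dble::R6/2 against Hdac4HET (standard error 0.04, 1.16-fold, adjusted p = 7.80e-05), below the fold threshold, and 0.26 without the arrays of raised bulb markers (adjusted p = 0.0137). The difference between the pair of rises, the interaction, was -0.19 with an adjusted p of 0.0859 and was not called.

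The dimmer Eed probe set, 1453830_at, scattered more and did not separate the genotypes. WT mice ran from 4.32 to 5.26, R6/2 from 4.54 to 5.66, Hdac4HET from 4.83 to 5.34 and Dble::R6/2 from 4.54 to 5.10. R6/2 was 0.33 above WT (adjusted p = 0.0264, short of 1.3-fold), and Dble::R6/2 was 0.21 below Hdac4HET on the log2 scale, a difference of -0.21 with an adjusted p of 0.163. The R6/2 rise was called under quantile normalization (0.38), without WT replicate 6 (0.40) or without R6/2 replicate 5 (0.39), and without WT replicate 6 this was also the single member probe set called in Hdac4HET against WT (0.45, adjusted p = 0.0369) and a called interaction (-0.61, adjusted p = 0.043). Within genotypes its correlation with 1448653_at was -0.12 across 37 arrays.

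Ezh1 gave different answers on its 4 probe sets. The brightest, 1449023_a_at, hardly moved: WT ran from 8.98 to 9.10, Hdac4HET from 8.97 to 9.13, R6/2 from 9.01 to 9.12 and Dble::R6/2 from 9.06 to 9.18. R6/2 differed from WT by 0.01 (95% interval -0.04 to 0.06, adjusted p = 0.694), an interval well inside 1.3-fold. Dble::R6/2 was 0.07 above Hdac4HET (adjusted p = 0.0233, and 0.178 without the arrays of raised bulb markers), also far below the fold threshold.

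The pair of dimmest Ezh1 probe sets rose with the transgene. On 1429629_at WT mice ran from 5.13 to 5.60 and R6/2 mice from 5.62 to 6.04, and the rise was 0.43 with a standard error of 0.07 (1.35-fold, adjusted p = 2.95e-06). On 1429630_at WT mice ran from 4.39 to 4.83 and R6/2 mice from 4.94 to 5.49, and the rise was 0.48 with a standard error of 0.07 (1.39-fold, adjusted p = 8.36e-07). Neither pair of ranges overlapped. Against Hdac4HET, Dble::R6/2 mice had a called rise in 1429630_at of 0.43 (adjusted p = 2.95e-06), with ranges of 4.84 to 5.44 and 4.45 to 4.88 that overlapped slightly. There 1429629_at was 0.27 higher (adjusted p = 0.0012), which was not called, and its adjusted p was 0.0638 without the arrays whose sex-linked genes went against the label and 0.0520 without those of raised bulb markers.

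The remaining Ezh1 probe set, 1418290_a_at, went down instead. It differed by -0.28 in R6/2 against WT (standard error 0.08, adjusted p = 0.00669) and by -0.35 in Dble::R6/2 against Hdac4HET (standard error 0.08, adjusted p = 0.000452), both short of the fold threshold. Without the arrays whose sex-linked genes went against the label, or without Hdac4HET replicate 1 or 9 alone, the second was -0.38 to -0.39 and was called, and without the arrays of raised bulb markers it was -0.16 (adjusted p = 0.428). No 2 of the 4 Ezh1 probe sets had a within-genotype correlation above 0.21 across 37 arrays. Which transcripts of the gene each of them reads was not determined here.

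Ezh2, the catalytic subunit associated with dividing cells, had 1 probe set, 1416544_at. WT mice ran from 6.55 to 6.92 with a median of 6.78, and Hdac4HET, R6/2 and Dble::R6/2 mice from 6.73 to 7.12, 6.69 to 7.03 and 6.63 to 7.16, with medians of 6.86, 6.91 and 6.87. All ranges overlapped, and WT was the lowest group by a small margin. R6/2 was 0.15 above WT (95% interval 0.03 to 0.28, 1.11-fold, adjusted p = 0.0485), and Dble::R6/2 differed from Hdac4HET by -0.01 (-0.13 to 0.12, adjusted p = 0.954).

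Suz12, which holds the PRC2 core together, was slightly higher in R6/2 than in WT on 4 of its 6 probe sets, while no Suz12 probe set passed the test in Dble::R6/2 against Hdac4HET. On its brightest probe set, 1420021_s_at, WT mice ran from 9.12 to 9.65 with a median of 9.51 and R6/2 mice from 9.66 to 9.85 with a median of 9.69, while Hdac4HET mice ran from 9.42 to 9.78 and Dble::R6/2 mice from 9.33 to 9.84. R6/2 and WT did not overlap, by a very narrow margin, and the other pair overlapped fully. The R6/2 rise was 0.22 (standard error 0.06, adjusted p = 0.00383), under 1.3-fold, and the difference in the other pair was 0.01 (95% interval -0.11 to 0.13, adjusted p = 0.941).

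Probe sets 1427253_s_at and 1452364_at, whose within-genotype correlations with the brightest were 0.92 and 0.68, differed by 0.22 and 0.23 in R6/2 against WT and by -0.01 and -0.08 in Dble::R6/2 against Hdac4HET. The probe set 1449661_at was the single Suz12 probe set past both thresholds. Its WT levels ran from 5.58 to 6.11 with a median of 5.86, its Hdac4HET levels from 5.81 to 6.10 with a median of 6.01, its R6/2 levels from 6.05 to 6.45 with a median of 6.21 and its Dble::R6/2 levels from 5.44 to 6.21 with a median of 5.93. R6/2 was the highest group, though its range overlapped with the 3 others.

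On 1449661_at the rise was 0.38 in R6/2 against WT (standard error 0.08, adjusted p = 0.000132), just over 1.3-fold. It was 0.35 to 0.36, and not called, without WT replicate 2, 3 or 8 or without R6/2 replicate 8 or 9, and 0.37, also not called, with array quality weights. The difference in Dble::R6/2 against Hdac4HET was -0.04 (95% interval -0.19 to 0.11, adjusted p = 0.742). The interaction was -0.42 with a standard error of 0.11 (adjusted p = 0.0481), the single interaction called among the 29 probe sets of the 9 genes, where 0.251% of all probe sets were called in either direction and 0.182% lower. This interaction was not called without the arrays of raised bulb markers (-0.35, adjusted p = 0.538) or those whose sex-linked genes went against the label (-0.38, adjusted p = 0.137). It was also lost with replicate number as a block (-0.41, adjusted p = 0.0736), by an ordinary linear model in place of limma (adjusted p = 0.0514), with brighter probe sets alone, where it was not among those fitted, and where 30% lower was read as below 0.7. Leaving out 1 array at a time ended the call for 25 of 37 arrays, with differences from -0.44 to -0.37 and adjusted p from 0.0501 to 0.0782. The 2 dimmer probe sets left, 1420020_at and 1420022_s_at, differed by -0.02 and -0.04 in R6/2 against WT and by -0.06 and -0.09 in the other pair.

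Jarid2, which helps to bring PRC2 to its targets, was not called on any of its 3 probe sets. On 1422698_s_at WT mice ran from 9.17 to 9.35, R6/2 from 9.07 to 9.28, Hdac4HET from 9.13 to 9.54 and Dble::R6/2 from 9.09 to 9.38. The ranges overlapped throughout. The differences were -0.08 in R6/2 against WT (adjusted p = 0.179) and -0.15 in Dble::R6/2 against Hdac4HET (standard error 0.04, adjusted p = 0.00729), the latter -0.02 without the arrays of raised bulb markers (adjusted p = 0.886) and -0.11 without those whose sex-linked genes went against the label (adjusted p = 0.0888). The other probe sets of the gene, 1422697_s_at and 1450710_at, were each 0.09 higher in R6/2 than in WT (for 1422697_s_at adjusted p = 0.109, and 0.0478 without the arrays of raised bulb markers) and differed by 0.04 and -0.08 in the other pair.

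Bmi1, the PRC1 subunit best known for holding the Cdkn2a locus silent in stem and progenitor cells, had the rise that stood furthest outside its spread in R6/2 against WT among the 9 genes tested. On 1417493_at, the brighter probe set, the lowest, median and highest levels were 9.54, 9.59 and 9.65 in WT and 9.99, 10.07 and 10.18 in R6/2. They were 9.61, 9.66 and 9.82 in Hdac4HET and 9.93, 10.03 and 10.09 in Dble::R6/2. Every mouse with the transgene was above every mouse without it, across all 4 genotypes. The rise was 0.48 in R6/2 against WT with a standard error of 0.03 (1.40-fold, adjusted p = 7.15e-16), the smallest p of any member tested. In Dble::R6/2 against Hdac4HET it was 0.33 with a standard error of 0.03 (1.25-fold, adjusted p = 1.19e-11), under the fold threshold.

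The second Bmi1 probe set gave rises of similar size. On 1448733_at WT mice ran from 9.12 to 9.43 and R6/2 mice from 9.68 to 9.86, with medians of 9.31 and 9.81. Hdac4HET mice ran from 9.14 to 9.53 and Dble::R6/2 mice from 9.65 to 9.88, with medians of 9.35 and 9.74. The groups were again apart. The rise was 0.48 in R6/2 against WT (standard error 0.05, 1.39-fold, adjusted p = 5.55e-11) and 0.40 in Dble::R6/2 against Hdac4HET (standard error 0.04, 1.32-fold, adjusted p = 2.07e-09), both called. Without Hdac4HET replicate 2 the second was 0.37 (adjusted p = 6.04e-09) and just missed the fold threshold. Without the arrays of raised bulb markers the rises in Dble::R6/2 against Hdac4HET were 0.40 on 1417493_at (adjusted p = 8.44e-08) and 0.52 on 1448733_at (adjusted p = 7.91e-07), so that both were called. Within genotypes the pair of Bmi1 probe sets correlated at 0.70 across 37 arrays.

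Rnf2, the main ligase of PRC1, was higher with the transgene on its brighter pair of probe sets, by less than 1.3-fold. On 1424873_at the lowest, median and highest levels were 8.76, 8.84 and 8.90 in WT, 9.01, 9.11 and 9.23 in R6/2, 8.70, 8.86 and 9.05 in Hdac4HET and 9.06, 9.15 and 9.24 in Dble::R6/2. No mouse with the transgene fell within the range of its control group, narrowly so in the second pair. The rise was 0.28 in R6/2 against WT (standard error 0.04, 1.21-fold, adjusted p = 5.98e-08) and 0.26 in Dble::R6/2 against Hdac4HET (standard error 0.04, 1.20-fold, adjusted p = 1.42e-07).

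On 1451519_at Rnf2 was 0.36 higher in R6/2 than in WT (standard error 0.04, 1.29-fold, adjusted p = 2.02e-08), just inside the fold threshold and with ranges of 8.90 to 9.22 and 8.51 to 8.79. Without WT replicate 4, R6/2 replicate 2 or R6/2 replicate 4 it was 0.38 and was called. It was 0.25 higher in Dble::R6/2 than in Hdac4HET (adjusted p = 1.44e-05), with ranges that overlapped narrowly. The other 3 Rnf2 probe sets, all much dimmer, differed by -0.08 to -0.04 in R6/2 against WT, and none of them was called. One of these, 1448042_s_at, lay below the lower quartile of all probe-set means and was 0.17 above Hdac4HET in Dble::R6/2 (adjusted p = 0.0354), a difference with an adjusted p of 0.154 when the arrays that went against their sex label were left out and 0.571 when those of raised bulb markers were. Ring1, the ligase that can stand in for Rnf2, had 1 probe set, 1422647_at. It ran from 7.50 to 8.19 in WT, 7.61 to 8.07 in R6/2, 7.63 to 8.14 in Hdac4HET and 7.75 to 8.28 in Dble::R6/2. Its ranges overlapped in both pairs, with differences of -0.09 (95% interval -0.27 to 0.08, adjusted p = 0.410) and 0.13 (-0.04 to 0.30, adjusted p = 0.248).

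**Figure D2:**
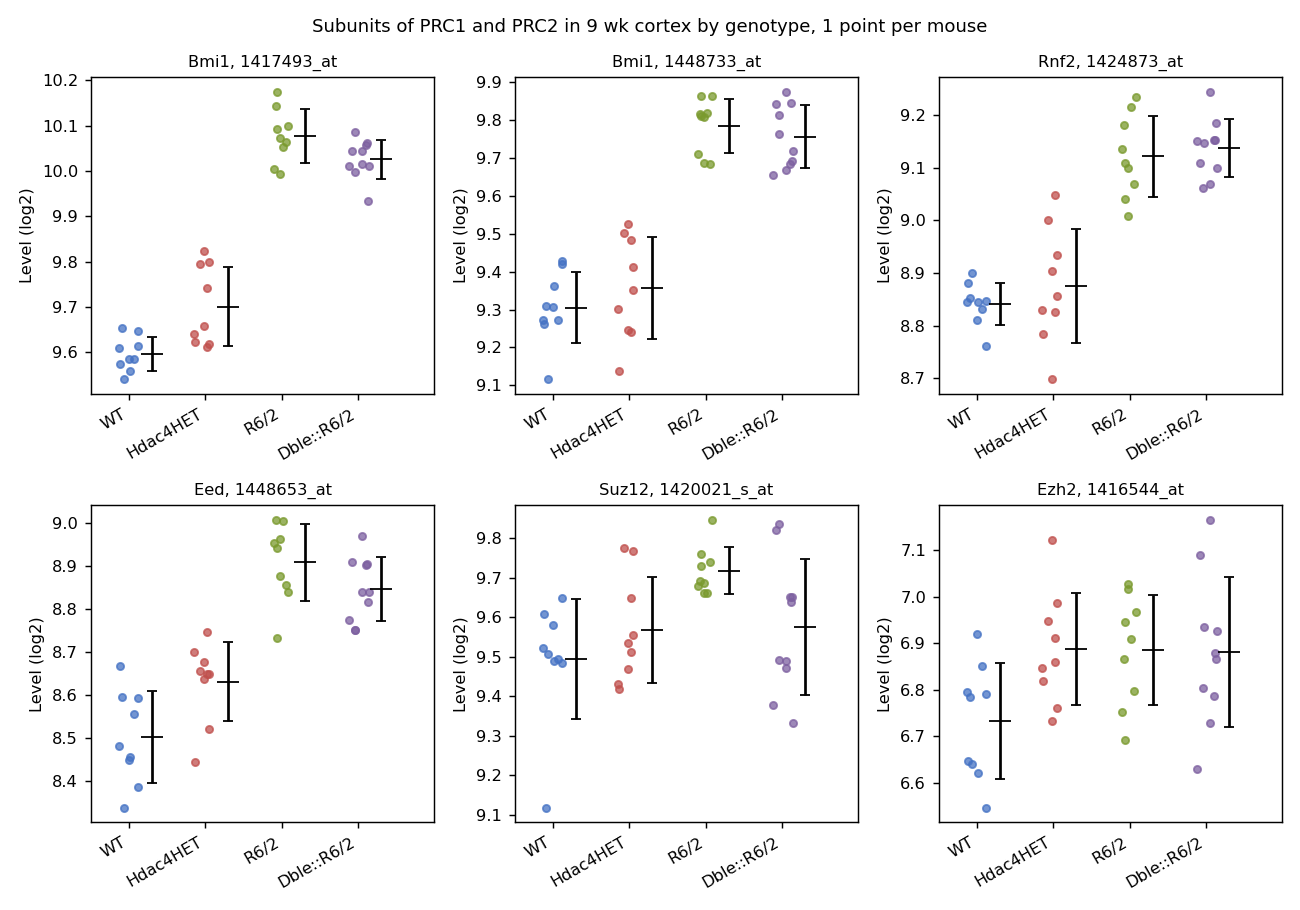
Level (log2) of 6 probe sets for subunits of PRC1 (Bmi1, Rnf2) and PRC2 (Eed, Suz12, Ezh2) in each of 37 mice by genotype, with 1 point per mouse, a bar for the mean ± SD and a separate vertical scale for each panel that does not start at 0. The 2 Bmi1 probe sets, Rnf2 and Eed separate the R6/2 and Dble::R6/2 mice from their controls, while Suz12 separates R6/2 from WT only and Ezh2 neither.

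Counted over the 29 probe sets of the 9 genes other than Sfmbt2, 6 were called higher and 0 lower in R6/2 against WT. The 6 belonged to 4 genes: both Bmi1 probe sets, the main one of Eed, the pair of dim Ezh1 probe sets and 1 of Suz12. Over all probe sets, 3.05% were called higher and 3.03% lower in this comparison. With the adjusted p alone, whatever the fold, 15 were higher and 1 lower, where 21.3% and 17.6% of all probe sets were. The median difference over the 29 was 0.15, against -0.02 over all probe sets. For 8 of the 29 (5 genes) every R6/2 mouse was above every WT mouse and for 0 every R6/2 mouse was below, where 5.63% and 2.73% of all probe sets were apart in this way.

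In Dble::R6/2 against Hdac4HET 2 of the 29 were called higher (Bmi1 1448733_at and Ezh1 1429630_at) and 1 lower (Sfmbt1 1422894_at), beside 2.02% and 5.07% of all probe sets. By adjusted p alone 10 were higher and 3 lower, where the shares of all probe sets were 21.2% and 15.6%. The median difference was 0.02, the same as over all probe sets. Ranges were apart, with Dble::R6/2 higher, for 4 of the 29 (3 genes: Eed, Bmi1 and Rnf2) beside 5.77% of all probe sets, and lower for 0 beside 3.55%. Without the arrays of raised bulb markers 3 were called higher (both Bmi1 probe sets and Ezh1 1429630_at) and 0 lower. Taken by gene, through the main probe set, 2 of 9 genes were called higher and 0 lower in R6/2 against WT (Bmi1 and Eed), where 3.75% of all genes were higher and 3.3% lower. In Dble::R6/2 against Hdac4HET 0 of the 9 were called, beside 2.6% of all genes higher and 4.08% lower. The pair of comparisons share no arrays, though they were fitted in 1 model with 1 estimate of the spread.

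**Figure D3:**
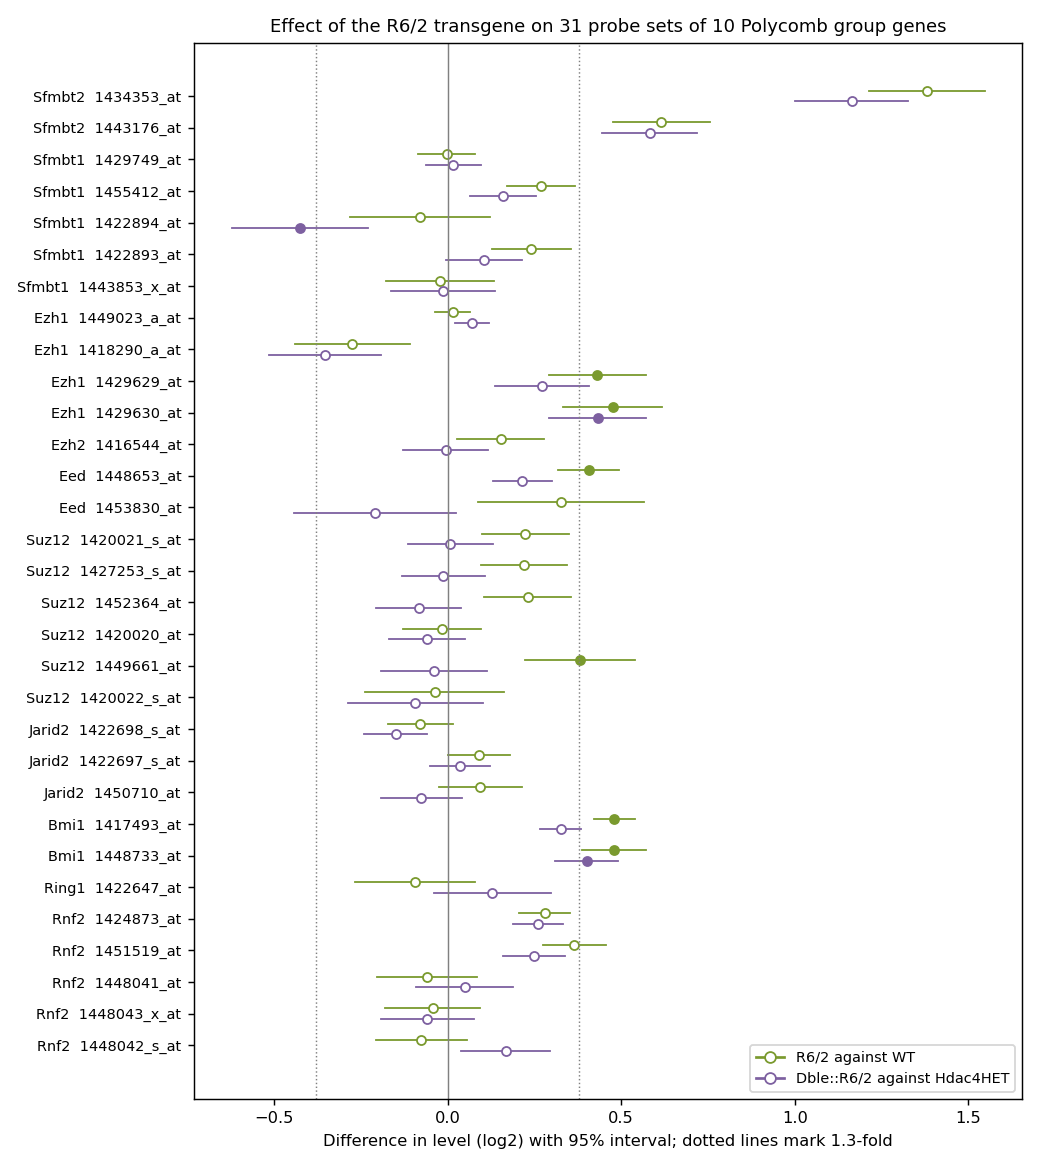
Difference in level (log2) with its 95% interval for all 31 probe sets in R6/2 against WT (green) and Dble::R6/2 against Hdac4HET (purple), filled where the probe set was called and open where it was not or, for Sfmbt2, where no test was made. Sfmbt2 lies far to the right at 1.38 and 1.16, the Bmi1 probe sets lie between 0.33 and 0.48, and the Suz12 probe sets fall near 0 in the second comparison.

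No member was called changed with the null Hdac4 allele. Of all 31 probe sets, Sfmbt2 included, 0 were called in Hdac4HET against WT, where 0.291% of all probe sets were called. An unadjusted limma p under 0.05 was found for 11 of the 31, a larger share than the 16.6% of all probe sets. The methods' t-test also called 0. Their differences ran from -0.08 to 0.38 with a median of 0.07, against -0.01 over all probe sets. The smallest adjusted p was that of Bmi1 1417493_at, 0.10 higher in Hdac4HET (95% interval 0.04 to 0.16, adjusted p = 0.0614). Without the arrays of raised bulb markers this was 0.04 (adjusted p = 0.885).

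In Dble::R6/2 against R6/2 0 of the 31 were called by limma or by the methods' t-test, beside 0.269% of all probe sets in limma. An unadjusted limma p under 0.05 was found for 7 of the 31, beside 17% of all probe sets. The differences ran from -0.31 to 0.24 with a median of -0.03, against 0.01 over all probe sets. At any size, 1 passed the adjusted p, beside 0.855% of all probe sets that were lower by that rule. It was Suz12 1449661_at, at -0.31 with a standard error of 0.08 (adjusted p = 0.0294, and 0.0998 and 0.0798 without the arrays of raised bulb markers and those whose sex-linked genes went against the label). The brightest Suz12 probe set differed by -0.14 (95% interval -0.26 to -0.02, adjusted p = 0.213) and Ring1 by 0.24 (0.07 to 0.41, adjusted p = 0.114). For Bmi1 the differences were -0.05 and -0.03 (adjusted p = 0.374 and 0.799), with 95% intervals of -0.11 to 0.01 and -0.12 to 0.06, both inside the 1.3-fold lines.

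The interaction was called for 1 of the 29 probe sets tested, the Suz12 probe set described above. An unadjusted limma p under 0.05 was found for 10 of the 29, a larger share than the 19% of all probe sets. The median over the 29 was -0.08, against 0.02 over all probe sets. The interaction for Bmi1 1417493_at was -0.16 with a standard error of 0.04 (adjusted p = 0.0521), and for Suz12 1452364_at -0.31 with a standard error of 0.09 (adjusted p = 0.0539). Without the arrays of raised bulb markers these were -0.09 (adjusted p = 0.622) and -0.19 (adjusted p = 0.658). The value for Sfmbt2 1434353_at, given with no test, was -0.22, and 0.03 without those arrays.

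**Figure D4:**
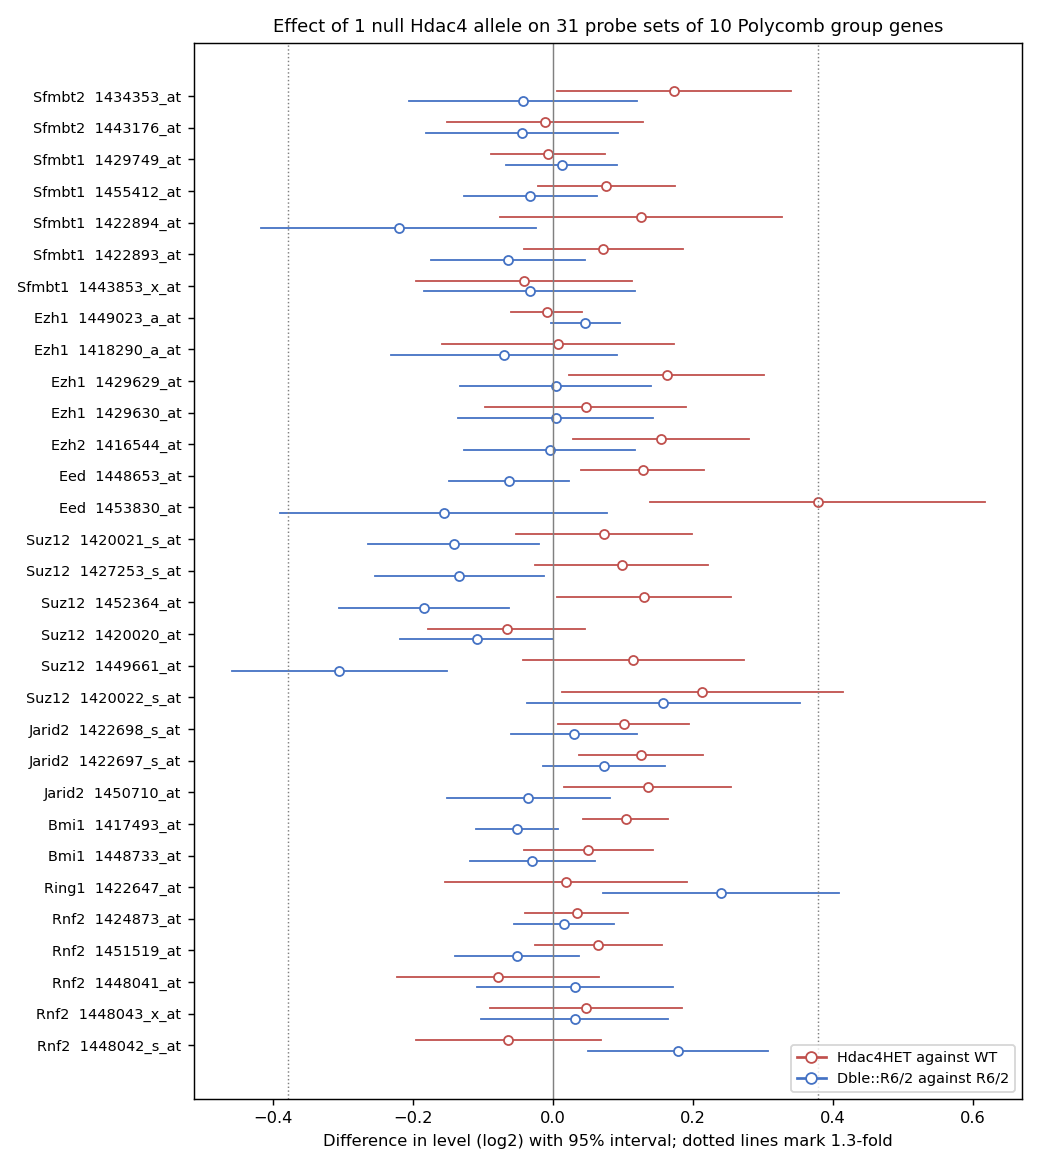
Difference in level (log2) with its 95% interval for all 31 probe sets in Hdac4HET against WT (red) and Dble::R6/2 against R6/2 (blue), with dotted lines at 1.3-fold. No probe set was called, and the 2 Sfmbt2 probe sets lie within 0.17 of 0.

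Sex gave no called difference in any member. On the 31 arrays whose sex-linked genes went with the label (17 male, 14 female), 0 of the 31 probe sets were called in males against females with genotype in the limma model, beside 0.0555% of all probe sets, and 2 had an unadjusted p under 0.05, as 6.25% of all probe sets did. These were Ring1, 0.17 higher in males (adjusted p = 0.664), and Sfmbt1 1429749_at, 0.07 higher (adjusted p = 0.765). Sfmbt2 1434353_at differed by -0.01 between the sexes (adjusted p = 0.990).

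The wider Polycomb and Trithorax system was read from 7 lists of 124 genes, of which 113 had a probe set with their symbol alone, each by its brightest probe set. In R6/2 against WT 7 were called higher and 1 lower, where 3.75% of all genes were higher and 3.3% lower. In Dble::R6/2 against Hdac4HET 6 were higher and 1 lower, beside 2.6% and 4.08%. Without the arrays of raised bulb markers the second count was 6 higher and 2 lower, though L3mbtl3, Msx1 and Foxc2 were no longer among the genes called. The medians over the 113 were 0.04 and 0.07, against 0.00 and 0.04 over all genes.

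The largest single change in these lists was a fall in Epop, which couples PRC2 to the elongin complex. Its levels ran from 7.20 to 7.88 in WT, 7.51 to 8.10 in Hdac4HET, 6.47 to 7.13 in R6/2 and 6.38 to 6.96 in Dble::R6/2. Every mouse with the transgene was below every mouse without it. It fell by 0.76 in R6/2 against WT (standard error 0.09, 1.69-fold, adjusted p = 4.33e-09) and by 1.05 in Dble::R6/2 against Hdac4HET (standard error 0.08, 2.07-fold, adjusted p = 8.29e-13), and the latter was -1.29 without the arrays of raised bulb markers (adjusted p = 1.20e-07). Its fellow PRC2 accessory subunit Phf1, which reads methylated histone H3 through a Tudor domain, rose by 0.43 in each comparison (adjusted p = 9.97e-10 and 6.62e-10), and by 0.41 in the second without those arrays (adjusted p = 0.000348). The other 8 of 10 accessory subunits were not called in either.

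L3mbtl3, like Sfmbt2 a protein of MBT repeats, rose by 0.56 in R6/2 against WT (standard error 0.04, 1.47-fold, adjusted p = 1.96e-15) and by 0.40 in Dble::R6/2 against Hdac4HET (standard error 0.03, adjusted p = 7.09e-12). Its levels ran from 8.55 to 8.84 in WT, 8.64 to 8.86 in Hdac4HET, 9.13 to 9.38 in R6/2 and 9.02 to 9.25 in Dble::R6/2. Mice with the transgene did not overlap with mice without it. The second rise was 0.31 (adjusted p = 0.000444), and not called, without the arrays of raised bulb markers. Its other probe sets were 1434246_at, which rose by 0.33 and 0.24, short of 1.3-fold, and 1443030_at, which differed by 0.08 and 0.10 (adjusted p = 0.473 and 0.366). The other 3 of the 4 measured genes in that list, Yy1, Mbtd1 and Zfp42, were not called. Yy1, the DNA-binding partner of the Sfmbt proteins, was 0.17 higher in R6/2 than in WT (adjusted p = 0.000343), at mean levels of 9.99 and 9.82. With all arrays used it was 0.15 higher in Dble::R6/2 than in Hdac4HET (adjusted p = 0.000715), also short of 1.3-fold.

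Among canonical PRC1 subunits 0 of 11 were called in R6/2 against WT and 1 in Dble::R6/2 against Hdac4HET. That one was Cbx8, a chromodomain protein that reads methylated lysine 27, which rose by 0.44 (standard error 0.06, adjusted p = 3.65e-08) and lay just short of the threshold in R6/2 against WT (0.38, adjusted p = 1.43e-06), where it was called with any of 9 single arrays left out or without the arrays whose sex-linked genes went against the label (0.39). Without the arrays of raised bulb markers the rise in Dble::R6/2 against Hdac4HET was 0.55 (adjusted p = 0.000224). The other Cbx8 probe set, 1419199_at, differed by -0.02 in R6/2 against WT and 0.09 in Dble::R6/2 against Hdac4HET (adjusted p = 0.859 and 0.263). By adjusted p alone 6 of the 11 were higher and 1 lower in the first comparison, where 28.1% and 18.4% of all genes were, and 6 were higher and 0 lower in the second, beside 28.4% and 14.1%. The median of the list was 0.19 and 0.14. Among variant PRC1 subunits Mga, which brings a PRC1 variant to DNA with MAX, was the 1 of 18 called in R6/2 against WT, at 0.51 (standard error 0.06, adjusted p = 1.79e-09), and it was 0.38 higher in Dble::R6/2 than in Hdac4HET (adjusted p = 6.12e-07), just short of 1.3-fold. That difference was called without the arrays of raised bulb markers (0.42, adjusted p = 0.00158), without those whose sex-linked genes went against the label (0.41) and with any of 9 single arrays left out. Its 4 other probe sets were not called in either. In Dble::R6/2 against Hdac4HET, with all arrays used, 1422646_at differed by -0.23 (adjusted p = 0.0384). There 1431232_a_at differed by -0.86 (standard error 0.41, adjusted p = 0.0994), 1433012_at by 0.14 and 1442356_at by -0.08. In R6/2 against WT the 4 ran from -0.09 to 0.12.

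Of the 14 measured H3K27 demethylase and Trithorax genes, which oppose Polycomb, 9 were higher and 0 lower by adjusted p alone in R6/2 against WT, where 28.1% and 18.4% of all genes were, and 7 were higher and 0 lower in Dble::R6/2 against Hdac4HET, beside 28.4% and 14.1%. The median of the list was 0.16 and 0.09. The H3K27 demethylases in it, Kdm6a and Kdm6b, had mean levels of 8.76 and 8.77 in WT against 8.73 and 8.79 in R6/2. In Hdac4HET they were at 8.90 and 8.81, and in Dble::R6/2 at 8.70 and 8.76. The rises were thus among the Trithorax genes. Kmt2d, a methyltransferase for lysine 4 of histone H3, was the 1 of the 14 past both thresholds in R6/2 against WT, at 0.45 (standard error 0.04, adjusted p = 3.94e-12). Against Hdac4HET, Dble::R6/2 mice were 0.21 higher in Kmt2d (adjusted p = 1.04e-05), and 0 of the 14 were called. The interaction for Kmt2d was -0.23 with a standard error of 0.05 (adjusted p = 0.0319, with 0.345 when the arrays of raised bulb markers were left out and 0.117 when those that went against their sex label were), under 1.3-fold. These Kmt2d values are from 1435550_at. The other Kmt2d probe set, 1427555_at, differed by -0.11 in R6/2 against WT (adjusted p = 0.196) and by 0.04 in Dble::R6/2 against Hdac4HET (adjusted p = 0.687). Of the PR-DUB genes, which remove the PRC1 mark, 0 of 9 were called in both comparisons.

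Of 47 measured developmental regulators known as Polycomb targets, 3 were called higher and 0 lower in each comparison. Of all genes 3.75% were called higher and 3.3% lower in R6/2 against WT, and 2.6% and 4.08% in Dble::R6/2 against Hdac4HET. By adjusted p alone 6 of the 47 were higher and 9 lower in the first, where 28.1% and 18.4% of all genes were. In the second 11 were higher and 1 lower, beside 28.4% and 14.1%. Foxc2 rose by 0.62 and 0.41 (adjusted p = 0.000222 and 0.0096), and Wt1 by 0.44 and 0.58 (adjusted p = 0.000284 and 2.82e-06). Foxc1 was the third in R6/2 against WT, at 0.42 (adjusted p = 2.24e-07), and Msx1 the third in Dble::R6/2 against Hdac4HET, at 0.46 (adjusted p = 4.20e-06), where its second probe set differed by 0.03. In Dble::R6/2 against Hdac4HET without the arrays of raised bulb markers, Foxc2 (0.61, adjusted p = 0.0743) and Msx1 (0.38, adjusted p = 0.0539) were not called, while Wt1 was (0.62, adjusted p = 0.00587). Foxc2 was also not called there without the arrays whose sex-linked genes went against the label (0.35, adjusted p = 0.0647) or without Dble::R6/2 replicate 8 or 9 alone (lowest 0.34). Foxc2 ran from 5.19 to 5.72 in WT, 5.24 to 5.77 in Hdac4HET, 5.53 to 6.48 in R6/2 and 5.38 to 6.57 in Dble::R6/2, so its groups overlapped. Wt1 lay low on the scale, from 3.66 to 4.13 in mice without the transgene and 3.79 to 4.79 in those with it. The median over the 47 genes was -0.05 in R6/2 against WT and 0.05 in Dble::R6/2 against Hdac4HET. The mean of 9 markers of choroid plexus, ependyma and meninges varied more widely with the transgene. It ran from 6.78 to 7.64 in WT, 6.69 to 7.38 in Hdac4HET, 6.57 to 8.13 in R6/2 and 6.45 to 8.14 in Dble::R6/2. Their median differences were 0.05 and 0.33, with 0 called in both comparisons. The part of such tissue in the rises of these regulators was not tested.

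With the null Hdac4 allele none of the 113 genes was called in limma, where 0.346% of all genes were called higher and 0.022% lower in Hdac4HET against WT, 0.022% and 0.066% in Dble::R6/2 against R6/2, and 0.066% and 0.121% in the interaction. An unadjusted limma p under 0.05 was found for 28, 15 and 24 of the 113, beside 19.1%, 16.2% and 19.2% of all genes. The lowest p in Hdac4HET against WT belonged to Foxd3 (0.25, adjusted p = 0.0519) and Pax1 (-0.23, adjusted p = 0.0531). With the transgene present they belonged to Kmt2a (-0.20, adjusted p = 0.0229) and Kmt2d (-0.14, adjusted p = 0.0356), 2 of the methyltransferases for lysine 4, and neither reached 1.3-fold. For both the adjusted p was 0.0615 without the arrays of raised bulb markers, and it was 0.0786 and 0.0937 without those that went against their sex label. In the interaction Tbx5 stood beside Kmt2d, at 0.37 (adjusted p = 0.0366, and 0.547 and 0.156 without the former and the latter arrays), and it was past both thresholds with any of 7 single arrays left out.

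**Figure D5:**
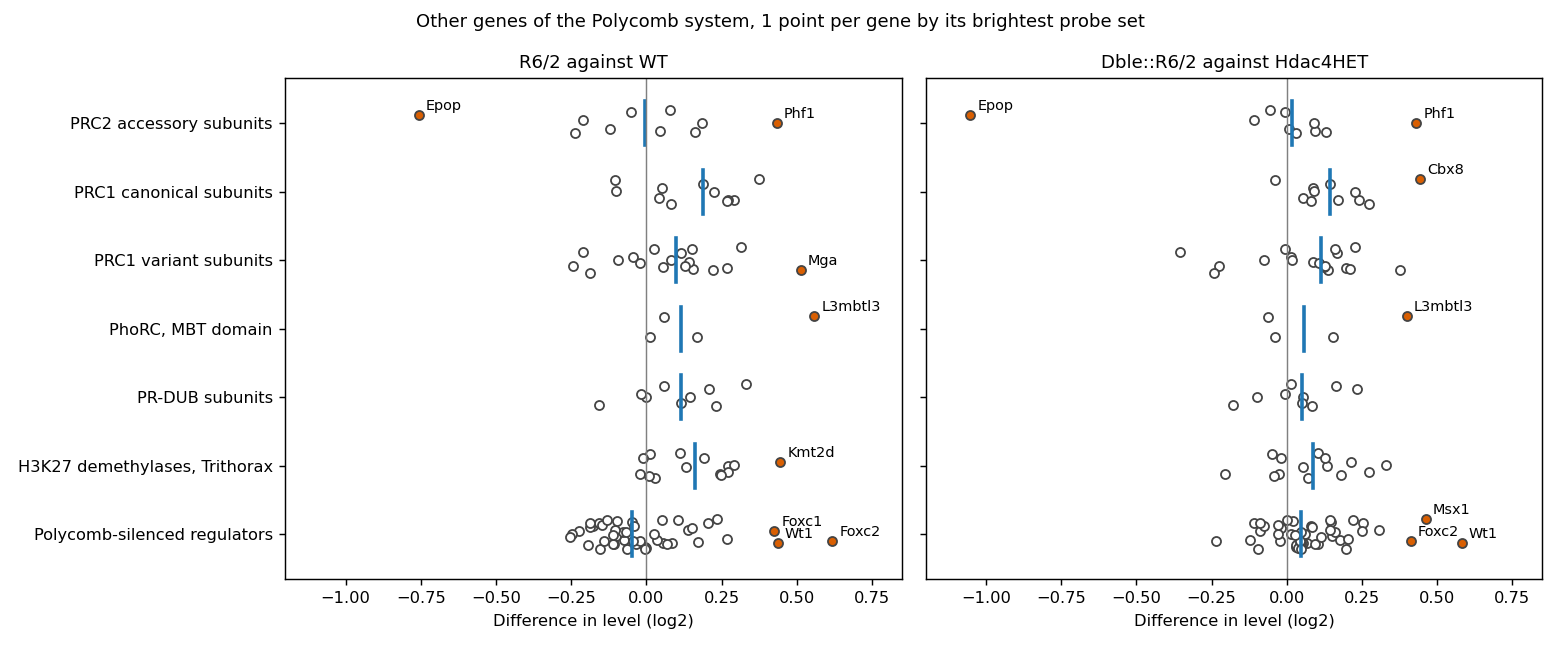
Difference in level (log2) of 113 other genes of the Polycomb and Trithorax system in R6/2 against WT (left) and Dble::R6/2 against Hdac4HET (right), with 1 point per gene by list, filled and named where called, and a blue bar at the median of each list. Epop stands alone on the left at -0.76 and -1.05, while Phf1, L3mbtl3, Foxc2 and Wt1 are called higher in both panels, in which all arrays were used.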

How the data were processed

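Cortical RNA of 37 mice was hybridised to Affymetrix arrays, and the labels gave the genotype, sex and replicate number. Expression values on the log2 scale were deposited by the authors as a single table. Per the methods, arrays were screened with RACE and poor ones dropped. How probes were summarized was not given in the sources used here, and the group sizes given there differ from the deposited arrays, all of which were used unchanged.

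Genes came from the platform annotation: 34945 of 45037 probe sets had 1 symbol, 932 several and 9160 none here, and only the first were named. The main probe set of a gene is the one with the highest mean over all arrays. Different probe sets were not compared in level.

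One linear model of the 4 genotypes was fitted to all probe sets with limma 3.58.1 in R 4.3.3 (lmFit, eBayes with a trend), p-values were adjusted over all 45037 by Benjamini-Hochberg, and the fold threshold was the 30% of the methods (1.3). The scripts were tested on simulated data. The members and lists were chosen with earlier results of these data known. All probe sets of the members were named. From the other lists up to 5 rises and 5 falls were named per comparison by size, or, where none was called, the 2 of lowest p. Phf1, Foxc1, L3mbtl3, Yy1, Kdm6a and Kdm6b are also named where that rule did not reach them, chosen after their values were seen. Replicates were taken as separate mice, although Hdac4HET replicates 5 and 9 carried sex-linked signal of both sexes. Nothing in the labels pairs replicate numbers across genotypes, and same-number arrays correlated at -0.27 to 0.22 after genotype means were removed, so the arrays were treated as unpaired. Alternatives were quantile normalization, brighter probe sets, pairwise fits, the methods' t-test, sex as a covariate, a replicate block, array weights, other thresholds and leaving out arrays. Precision is limited by the number of arrays. Figures were drawn with matplotlib 3.10.9.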

Additional observations from a re-analysis of the deposited data

Results flagged for a closer look

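In 124 groups of 9 or 10 arrays (31 probe sets in 4 genotypes), 4 held an array far from the others by Dixon's test, which flags about 1 in 20 groups by chance. Suz12 was lowest in WT replicate 8 on 2 of its probe sets, at 9.12 on 1420021_s_at, where the next WT mouse was at 9.49, and at 8.49 on 1427253_s_at, where the next was at 8.81. On the Suz12 probe set 1420020_at, Dble::R6/2 replicate 2 was highest at 7.05, with the next at 6.87. On the Rnf2 probe set 1451519_at, Hdac4HET replicate 3 was lowest at 8.46, with the next at 8.66. The mean of the olfactory bulb markers on that array was 6.72, just above the highest WT array at 6.71. The effect of the transgene on Suz12 1449661_at differed with the null Hdac4 allele, by an interaction of -0.42 (limma adjusted p = 0.0481), a call lost with replicate number as a block (adjusted p = 0.0736) and under the other alternatives named in the account of that probe set.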

How the results depend on the processing

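No difference of a member probe set that was called turned its sign under any alternative. Of the counts over members, that of R6/2 against WT was 6, and 3 with probe sets above the median level alone (19 of the 29 were left), 16 without a fold threshold, and 5 to 7 with 1 array left out. That of Dble::R6/2 against Hdac4HET was 3, 13 without a fold threshold and 2 to 4 with 1 array left out (2 without Hdac4HET replicate 2, 4 without Hdac4HET replicate 1 or 9). That of Hdac4HET against WT was 0, and 0 to 1 with 1 array left out (1 without WT replicate 6). That of Dble::R6/2 against R6/2 was 0, 1 without a fold threshold and 0 to 0 with 1 array left out. The interaction count was 1 and fell to 0 with brighter probe sets, by an ordinary linear model in place of limma, with the replicate block, where 30% lower was read as below 0.7, and without either set of doubted arrays. With 1 array left out it was 0 to 2. The count by sex was 0 throughout, 0 to 0 with 1 array left out. With replicate number as a block, the members called were 6, 3, 0, 0 and 0 in the 5 comparisons, against 6, 3, 0, 0 and 1. Over all probe sets the block moved the count in Dble::R6/2 against R6/2 from 121 to 20. Of 37 arrays 3 correlated best with an array of their own number. The cause of these changes was not tested.

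Under quantile normalization the Eed rise in R6/2 against WT fell below the fold threshold on 1448653_at and passed it on 1453830_at. Counts over the wider lists were 8 to 9 in R6/2 against WT and 7 to 8 in Dble::R6/2 against Hdac4HET with 1 array or either set of doubted arrays left out, against 8 and 7, alternatives chosen after seeing the data. Bulb tissue and the Hdac4HET genotype cannot be told apart well, since 2 Hdac4HET arrays are without raised bulb markers. Dim probe sets have no detection call in these values.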

Other observations

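Outside the Polycomb system, the genes whose level followed Sfmbt2 most closely from mouse to mouse within genotypes were Tmem255a (r = 0.81), Ttc39c (0.76), Tram1 (0.76), Gabrg1 (0.76), Nrarp (0.75) and Wdr6 (0.75), the 6 highest Pearson correlations with 1434353_at among 11441 genes above the median level. These are over 37 arrays after the mean of each genotype was removed, are a description with no test, and share whatever varies between arrays as a whole. On the 29 arrays without raised olfactory bulb markers they were 0.78, 0.70, 0.75, 0.66, 0.63 and 0.64. Their own differences between genotypes were smaller than those of Sfmbt2: in R6/2 against WT they ran from -0.38 for Nrarp, a regulator of Notch signalling, to 0.21 for Ttc39c, and in Dble::R6/2 against Hdac4HET from -0.19 for Nrarp to 0.34 for Wdr6 and 0.37 for Tmem255a. Of the members, Rnf2 (0.43) and Bmi1 (0.36) had the highest such correlations with Sfmbt2 and Sfmbt1 the lowest (-0.01). The highest of any pair of members was that of Suz12 and Jarid2 (0.63).

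The nearest measured protein-coding genes along the chromosome, Kin, Itih2 and Itih5 on one side and Prkcq, Pfkfb3 and Rbm17 on the other, were not called in either transgene comparison. Their differences ran from 0.03 (Prkcq) to 0.26 (Pfkfb3) in R6/2 against WT and from 0.08 (Pfkfb3) to 0.16 (Prkcq) in Dble::R6/2 against Hdac4HET, beside 1.38 and 1.16 for Sfmbt2. By limma adjusted p alone, with all arrays used, Kin (0.000218), Pfkfb3 (0.021) and Rbm17 (0.000834) were higher in the first. Kin (0.0371), Prkcq (0.00768) and Rbm17 (8.99e-05) were higher in the second. Of all genes 28.1% and 28.4% were higher by that rule.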
